A study of Mus musculus with 8 samples.

Results

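The small leucine-rich proteoglycans are a family of secreted matrix proteins, and 10 of their genes (Epyc, Ogn, Omd, Dcn, Bgn, Lum, Fmod, Aspn, Kera and Prelp) were followed in mouse esophagus. They were taken by gene symbol out of 32849 symbols in the count table. Epyc was included because its level differed between the groups of these libraries, so its difference is given as a description without a test, whereas the other 9 were included by family name. All 10 symbols were found, and 9 of them were among the 14864 genes kept for testing. Kera was not kept, because it was close to the detection limit.

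The study compared the esophagi of healthy WT mice with those of MGL KO mice, which lack monoacylglycerol lipase, the enzyme that degrades the endocannabinoid 2-arachidonoylglycerol and is encoded by Mgll. Each group held 4 libraries, labelled replicates 1 to 4. The knockout line was bred in-house beside WT littermates, and according to the methods the study used young adult mice of both sexes, with no inducible inflammation model or treatment in these groups. The labels name esophagus tissue that had been frozen, with polyadenylated RNA sequenced, and do not say which animal or sex gave each library. As these are bulk samples, fewer cells of a type and less RNA per cell cannot be told apart.

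Proteins of this family share a core of leucine-rich repeats that binds collagen fibrils, and most members carry chondroitin, dermatan or keratan sulfate chains. Class I contains decorin, biglycan and asporin. Class II contains lumican, fibromodulin, keratocan, osteomodulin and prolargin, and class III contains epiphycan, osteoglycin and opticin. In soft tissues they are made mainly by fibroblasts, where they space collagen fibrils and bind growth factors, while epiphycan is best known from growth plate cartilage.

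The deposited counts summed to between 13479069 and 17090152 per library. Levels are given as normalized CPM, the counts scaled to the size of each library with TMM factors, and the detection floor of 3 counts equalled 0.167 to 0.271 CPM. This floor covers counting error only. Mgll, the targeted gene, lay between 12.6 and 16.0 CPM in the MGL KO libraries and between 66.6 and 88.3 CPM in the WT libraries, so that the groups followed their labels. Summed Y-linked transcripts lay between 185.6 and 223.7 CPM in all 8 libraries, so that every library held RNA of male tissue. MGL KO replicate 4 stood apart by the airway ciliated cell gene Foxj1, at 228 CPM against at most 0.63 CPM in WT. Log2 fold changes without this library are given beside those of the members. Outside it, the sum of the 10 listed airway ciliated cell markers, of which 5 were tested, came almost wholly from Tppp3, a gene of a microtubule-binding protein. This sum lay between 805 and 1950 CPM in MGL KO and between 410 and 722 CPM in WT, without overlap, and Tppp3 itself was at 768 to 886 CPM against 405 to 712 CPM. The part of these markers in the Epyc and Dcn differences was not tested.

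Most of these genes lie in clusters. On chromosome 10 of GRCm39, Dcn (97315275 to 97358155), Lum (97400990 to 97408577), Kera (97442728 to 97449554) and Epyc (97479853 to 97518316) follow each other on the forward strand, with gaps of 42.8, 34.1 and 30.3 kb and no other protein-coding gene between them. On chromosome 13, Aspn, Omd and Ogn follow the related gene Ecm2, with gaps of 9.64, 14.9 and 15.1 kb. Prelp and Fmod lie 107 kb apart on chromosome 1, with Optc, the gene of opticin, next to Prelp, and Bgn lies alone on chromosome X from 72527208 to 72539541.

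**Figure D1:**
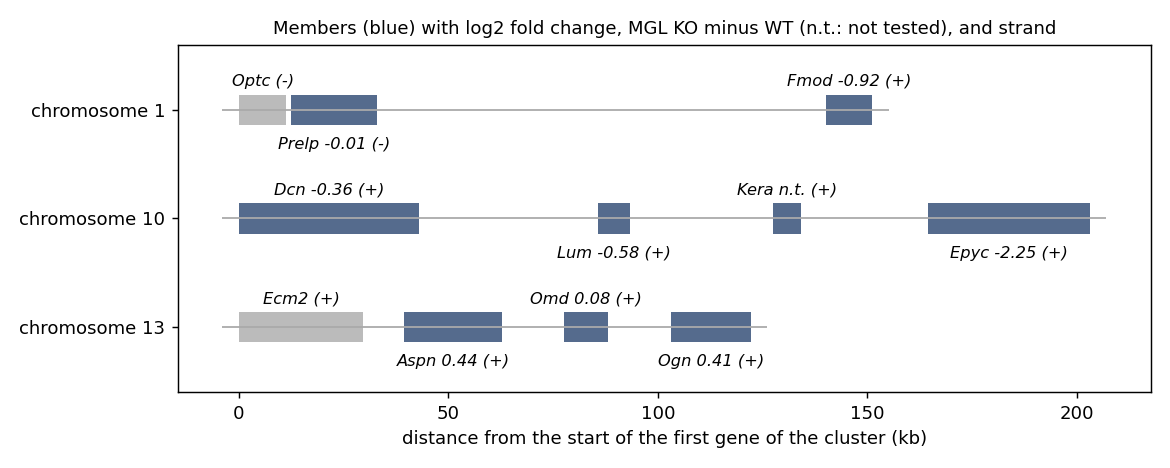
The 3 gene clusters drawn to scale, with the distance in kb from the start of the first gene on the x axis and a row for each chromosome. Bars are gene bodies, blue for the members and gray for Optc and Ecm2, and the number beside a member is its log2 fold change (MGL KO minus WT), which is negative for Dcn, Lum and Epyc on chromosome 10. The sign of Prelp, Fmod and Omd turned when single libraries were left out.

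The promoters of Dcn, Lum and Epyc on chromosome 10 are shown because these neighbours had negative log2 fold changes (MGL KO minus WT), that of Epyc being given as a description and those of Dcn and Lum not passing the adjusted threshold. Each line gives the 250 bases before the start of the gene's canonical transcript on the forward strand of GRCm39, read 5′ to 3′ from the reference genome. Capitals mark ACAAAG or its reverse complement CTTTGT, a form of the core letters that SOX family transcription factors bind. Other forms of these letters were not searched for or marked. The regions are chr10:97315025-97315274 for Dcn, chr10:97400740-97400989 for Lum and chr10:97482697-97482946 for Epyc.
Dcn: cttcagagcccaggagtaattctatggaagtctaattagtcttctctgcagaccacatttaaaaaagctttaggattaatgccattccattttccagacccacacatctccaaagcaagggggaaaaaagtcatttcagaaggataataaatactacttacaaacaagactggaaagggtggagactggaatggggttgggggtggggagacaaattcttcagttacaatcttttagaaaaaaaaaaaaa
Lum: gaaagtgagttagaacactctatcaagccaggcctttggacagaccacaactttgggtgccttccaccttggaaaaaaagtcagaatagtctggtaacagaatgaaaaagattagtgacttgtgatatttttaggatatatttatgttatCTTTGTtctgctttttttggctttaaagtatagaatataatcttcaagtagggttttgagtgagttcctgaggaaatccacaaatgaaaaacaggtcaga
Epyc: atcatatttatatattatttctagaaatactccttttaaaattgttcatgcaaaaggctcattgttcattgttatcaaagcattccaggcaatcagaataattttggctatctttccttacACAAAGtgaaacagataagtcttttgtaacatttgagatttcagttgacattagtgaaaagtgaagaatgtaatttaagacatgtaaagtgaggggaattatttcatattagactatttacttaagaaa

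ACAAAG was found in the promoter of Epyc on the forward strand, starting 129 bases before the transcript start, and in that of Lum on the reverse strand, starting 100 bases before it. It was also found in the promoter of Ogn, so that 3 of the 9 members searched held it, against 15.9% of 21737 mouse promoters of the same length. The TATA box letters TATAAA, searched on the forward strand, were found in the promoters of Ogn and Aspn and in 8.04% of all promoters. Neither TGANTCA, bound by AP-1 factors, nor CACGTG, an E-box, was found in a member searched, while 6.18% and 6.27% of all promoters held them. The searches other than TATAAA covered both strands, and no matches overlapped. Epyc has 4 annotated transcripts, of which 3 start before the canonical one, the first of them 3094 bases upstream, so the letters shown belong to 1 of its starts.

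Levels were first compared between the genes, as CPM per kb of all annotated exons (the exon union), averaged over the 8 libraries. Dcn, whose product decorin binds collagen and transforming growth factor β, was at 39.4 ± 6.81 CPM per kb (SD, n = 8 libraries). Aspn, which encodes asporin, another class I protein, was at 37.3 ± 10.9 CPM per kb. These neighbours were not apart beyond their spread, as Dcn was above Aspn in 4 of 8 libraries, those of the WT group. Bgn, encoding biglycan, a close relative of decorin that also acts on Toll-like receptors when it is released, followed at 28.04 ± 6.52 CPM per kb and was below Aspn in 7 of 8 libraries.

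Lum, which encodes the keratan sulfate proteoglycan lumican, was at 16.6 ± 4.75 CPM per kb. Prelp, encoding prolargin of basement membrane and connective tissue, was at 9.25 ± 2.59 CPM per kb, and Ogn, the osteoglycin gene, at 6.06 ± 1.36 CPM per kb. Lum was below Bgn and above Prelp in all 8 libraries, and Prelp was above Ogn in 7. Fmod, Epyc and Omd, which encode fibromodulin, epiphycan and osteomodulin, formed a low group at 1.17 ± 1.24, 1.01 ± 0.72 and 0.59 ± 0.13 CPM per kb, within which the order changed between libraries. Kera, the keratocan gene known from the cornea, was last at 0.06 ± 0.05 CPM per kb. With the length of the canonical transcript in place of all exons, a scale added after the data were seen, Bgn (78.2 CPM per kb) stood above Aspn (46.1 CPM per kb) and next to Dcn (84.2 CPM per kb), so that the order of the 3 class I genes depended on the length used.

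Epyc was measured at 4.30, 4.39, 4.73 and 4.76 CPM in WT replicates 1 to 4, from 77, 77, 72 and 73 counts. In MGL KO replicates 1 to 4 it was at 1.29, 0.54, 0.92 and 1.01 CPM, from 21, 6, 15 and 18 counts. Every MGL KO library was thus below every WT library, and the gap between the groups was wider than either group. The means were 0.94 ± 0.31 CPM in MGL KO and 4.55 ± 0.24 CPM in WT (SD, n = 4 each), or 20.7% of the WT level, a log2 fold change of -2.25 (standard error, SE, 0.28).

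Epyc ranked 15 from the most negative log2 fold change among 14864 genes, and since it was chosen on this contrast, neither the rank nor the gap is evidence of its own. The WT libraries were closer together than counting alone would give, with a coefficient of variation of 5.18% against 11.6% from the mean count. In MGL KO the spread was 32.7% against 25.8% from counting. Without MGL KO replicate 4, the log2 fold change of Epyc was -2.27.

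The exons of Epyc overlap Gm10754, annotated on the opposite strand, over 1355 bases, 50% of the Epyc exon length, and 4930473O22Rik over 99 bases. Both had 0 counts in every library. Whether the counting used strand is not given in the sources used here, so reads in the shared bases cannot be assigned with certainty, in either group. Ogn and Aspn share 18.8% and 9.12% of their exon length with Cenpp on the opposite strand, which had 26 to 50 counts per library, and Prelp shares 4.98% with Gm15851.

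**Figure D2:**
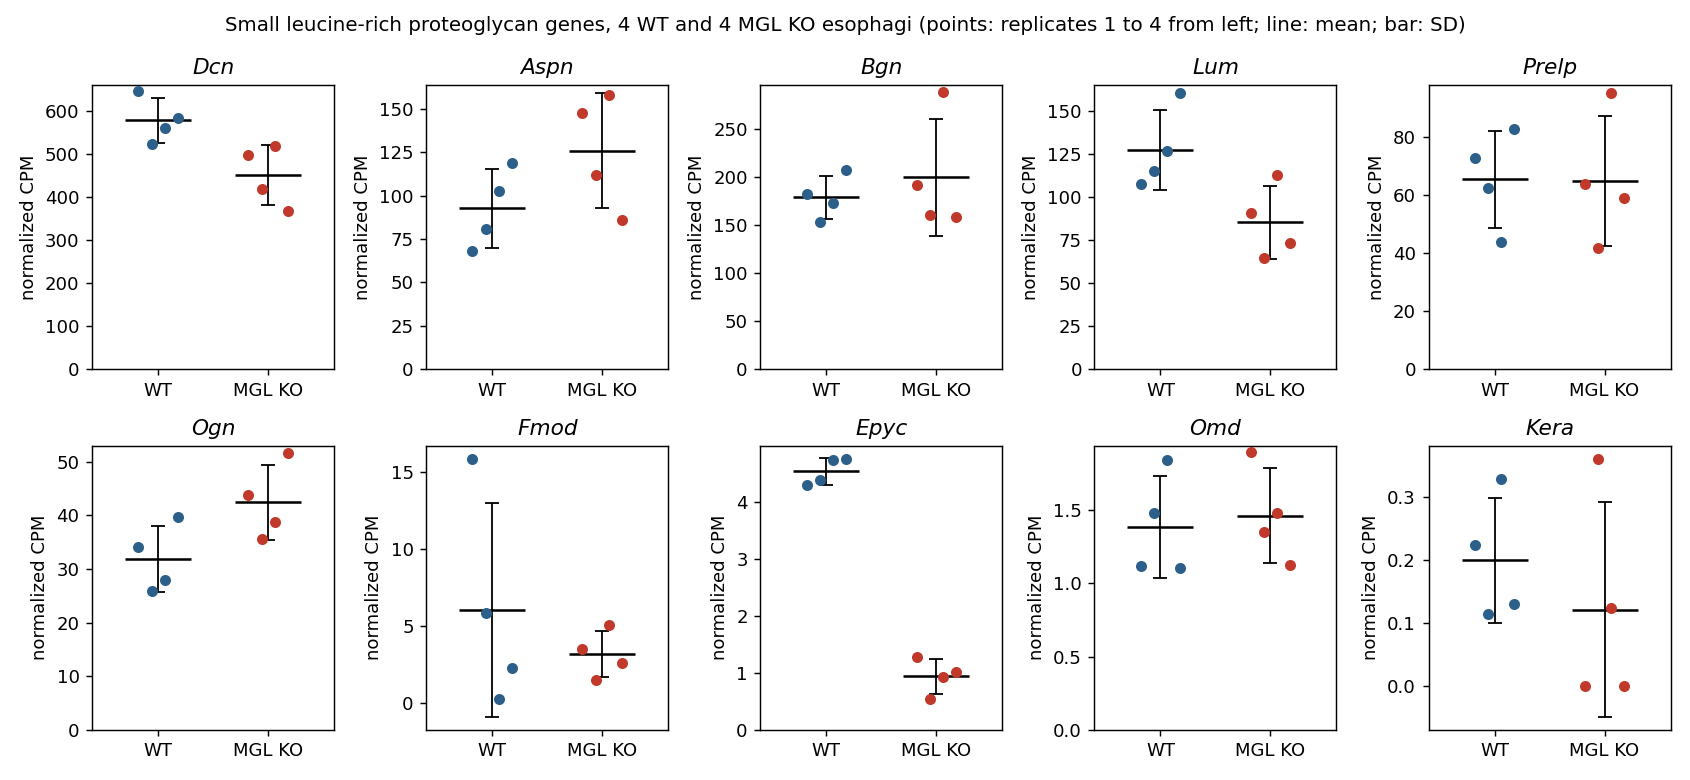
Normalized CPM (y axis, a separate linear scale for each gene) of the 10 members in 4 WT and 4 MGL KO libraries (x axis), ordered by level per kb. Points are replicates 1 to 4 from left to right, lines are means and bars are SD, and Epyc (0.54 to 1.29 CPM in MGL KO, 4.30 to 4.76 CPM in WT) and Dcn (367 to 519 against 523 to 646 CPM) are the genes whose groups do not overlap.

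The other members addressed whether the matrix genes around Epyc differed between the groups too. Of the 8 other members tested, 0 passed an adjusted p of 0.05 in edgeR's quasi-likelihood test, beside 0.0471% of all genes tested, and 0 passed in the exact test, DESeq2 or limma-voom. An unadjusted p under 0.05 was reached by 3 of the 8, with Dcn and Lum lower and Ogn higher in MGL KO, beside 8.65% of all genes tested (4.29% lower and 4.35% higher). That number was 2 with the replicate block and 1 to 3 with 1 library left out, the lowest without WT replicate 3. Their median log2 fold change was 0.04, close to the 0.02 of all genes tested. Estimates were below 0 for 4 of them, beside 47% of all genes.

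Among the class I genes, Dcn was at 646, 523, 559.8 and 582 CPM in WT replicates 1 to 4 and at 498, 418, 519 and 367 CPM in MGL KO replicates 1 to 4. Every MGL KO library lay below every WT library, but the highest MGL KO and the lowest WT library were nearly level. Such a separation was found in 6.02% of all genes tested, 3.30% with MGL KO lower, and apart from Epyc it was found in 1 of the 8 members. The mean was 451 ± 70.4 CPM in MGL KO and 577.5 ± 51.7 CPM in WT (SD, n = 4), or 78.0% of WT. The log2 fold change was -0.36 (SE 0.14), with edgeR quasi-likelihood adjusted p = 0.55, and it was -0.27 without MGL KO replicate 4.

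Bgn was at 183, 153, 173 and 207 CPM in WT and at 191, 160.4, 289 and 158 CPM in MGL KO replicates 1 to 4. The groups overlapped, and MGL KO replicate 3 alone was well above the rest. Its log2 fold change was 0.16 (95% interval -0.30 to 0.62, edgeR quasi-likelihood adjusted p = 0.826), and it turned to -0.08 without MGL KO replicate 3 and was 0.25 without MGL KO replicate 4.

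Aspn was at 68.2, 80.5, 103 and 119 CPM in WT and at 148, 112, 158 and 85.7 CPM in MGL KO replicates 1 to 4. MGL KO replicates 1 and 3 lay above all WT libraries, whereas MGL KO replicates 2 and 4 lay within them. The log2 fold change was 0.44 (95% interval -0.08 to 0.97, edgeR quasi-likelihood adjusted p = 0.631) and 0.59 without MGL KO replicate 4. Decorin and asporin bind collagen at overlapping places, and their transcripts had estimates of opposite sign.

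Among the class II genes, Lum was at 107, 115, 127 and 160.1 CPM in WT replicates 1 to 4 and at 90.4, 64.6, 113 and 73.3 CPM in MGL KO replicates 1 to 4. Only MGL KO replicate 3 reached into the WT range. Lum had 67.0% of the WT mean, with a log2 fold change of -0.58 (SE 0.19), edgeR quasi-likelihood adjusted p = 0.503, and -0.51 without MGL KO replicate 4.

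Prelp was at 72.6, 62.2, 43.7 and 82.5 CPM in WT and at 63.6, 41.7, 95.1 and 58.7 CPM in MGL KO replicates 1 to 4. These ranges lay over each other, and the interval of the log2 fold change, -0.61 to 0.59 around -0.01, leaves room for a moderate difference either way. The sign of this estimate turned in 5 of the 8 fits that left out 1 library, and it was 0.04 without MGL KO replicate 4.

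Fmod varied widely among the WT libraries, at 15.8, 5.82, 0.26 and 2.28 CPM in WT replicates 1 to 4. In MGL KO it was at 3.49, 1.53, 5.06 and 2.64 CPM. WT replicate 1 was the highest and WT replicate 3 the lowest of all 8 libraries, with 284 and 4 counts. The same WT libraries were the extremes of the summed mesothelium markers, at 175 and 1.51 CPM, of the summed adipocyte markers, at 454 and 11.5 CPM, and of the summed Schwann cell markers, at 434 and 175 CPM. MGL KO replicate 4 was not far below WT replicate 1 in these sums, at 157, 377 and 408 CPM, with Fmod at 2.64 CPM. MGL KO replicate 3 had 391 CPM of the adipocyte markers, with Fmod at 5.06 CPM. The part of these cells in the Fmod values was not tested. The log2 fold change of -0.92 (95% interval -2.94 to 1.09) became 0.19 without WT replicate 1 and -0.84 without MGL KO replicate 4.

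Omd, the osteomodulin gene first known from bone, lay between 1.12 and 1.90 CPM in MGL KO and between 1.11 and 1.84 CPM in WT, with at most 31 counts in a library. Its log2 fold change was 0.08 (95% interval -0.58 to 0.74, edgeR quasi-likelihood adjusted p = 0.945) and 0.19 without MGL KO replicate 4. Kera had 0 to 4 counts in MGL KO and 2 to 5 counts in WT libraries, at or near the limit set by 3 counts, and no fold change is given. Neither gene could show a moderate difference at this depth, since counting alone gives Omd a coefficient of variation of 21.0% in WT and 21.1% in MGL KO.

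In class III, to which Epyc belongs, Ogn was at 34.0, 25.97, 27.9 and 39.6 CPM in WT and at 43.7, 35.6, 38.8 and 51.7 CPM in MGL KO replicates 1 to 4. The lower MGL KO libraries overlapped the upper WT libraries, and the highest value was that of MGL KO replicate 4. The mean in MGL KO was 133% of WT, with a log2 fold change of 0.41 (SE 0.17), edgeR quasi-likelihood adjusted p = 0.55, and 0.30 without MGL KO replicate 4. Optc, the remaining class III gene, was at 2.57 ± 0.51 CPM in MGL KO and 3.90 ± 1.88 CPM in WT (SD, n = 4), and its edgeR quasi-likelihood adjusted p was 0.664. The class III genes thus had estimates of both signs.

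**Figure D3:**
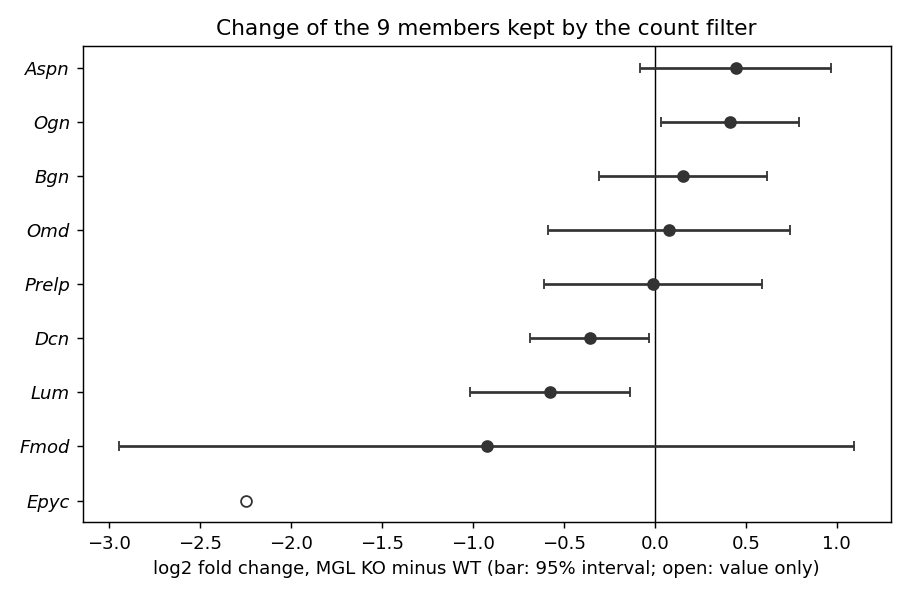
Log2 fold change (x axis, MGL KO minus WT) of the 9 members kept by the count filter, with 95% intervals that are not adjusted for the number of genes. Epyc, at -2.25, is an open point without an interval because it was chosen for this difference, and among the others the intervals of Dcn, Lum and Ogn do not reach 0.

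The balance between the members was compared next, with measures chosen after the values were seen. As a ratio of CPM to Dcn, Aspn was at 10.6%, 15.4%, 18.3% and 20.5% in WT replicates 1 to 4 and at 29.7%, 26.8%, 30.5% and 23.3% in MGL KO replicates 1 to 4. Bgn was at 28.3% to 35.6% of Dcn in WT and at 38.4% to 55.6% in MGL KO. Ogn was at 4.97% to 6.81% of Dcn in WT and 7.47% to 14.1% in MGL KO. None of these ranges overlapped, which is 3 of the 7 members tested apart from Epyc. They stand beside 17.8% of all genes tested, since Dcn itself had lower values in MGL KO and 17.5% of genes were higher relative to it (0.276% lower). Epyc, chosen for its difference, was at 0.665% to 0.846% of Dcn in WT and 0.129% to 0.275% in MGL KO.

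With Bgn as the reference, Dcn was 2.81 to 3.54 times the level of Bgn in WT and 1.80 to 2.61 times in MGL KO libraries, on the CPM scale. Lum was at 58.8% to 77.2% of Bgn in WT and at 39.0% to 47.3% in MGL KO. These 2 of the 7 members tested apart from Epyc had ratios to Bgn that did not overlap, both lower in MGL KO, beside 2.56% of all genes in that direction. Aspn and Ogn overlapped between the groups on this scale.

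**Figure D4:**
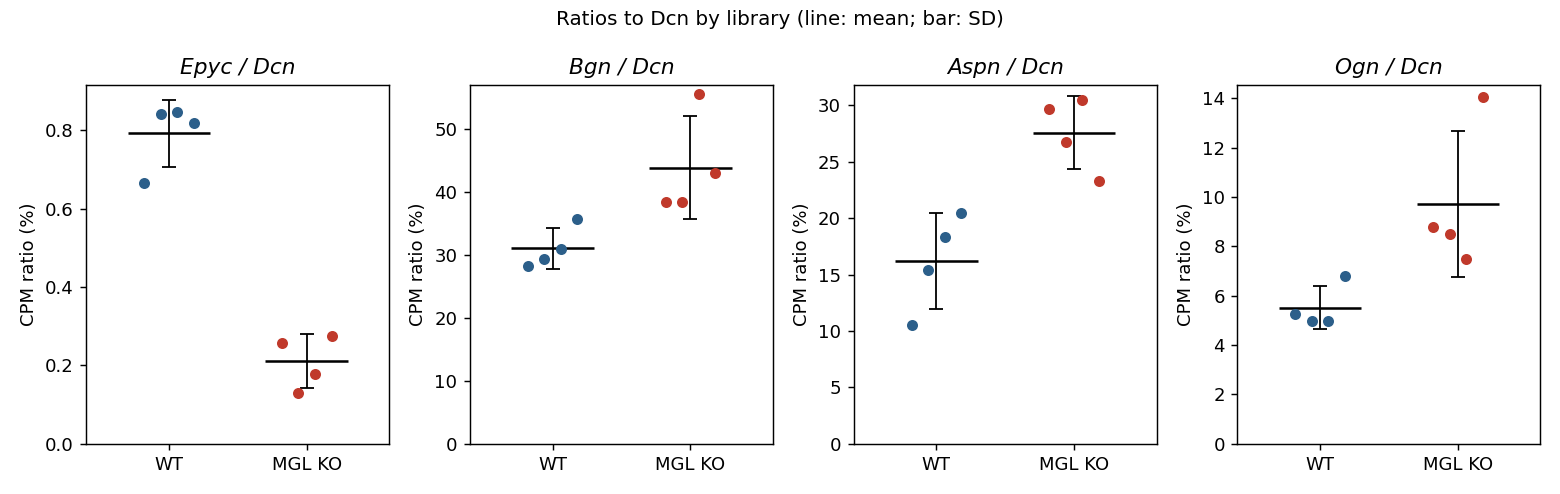
CPM of Epyc, Bgn, Aspn and Ogn as a percentage of the CPM of Dcn in the same library (y axis from 0) for 4 WT and 4 MGL KO libraries (x axis), with replicates 1 to 4 from left to right in each group. Lines are means and bars SD, and the MGL KO libraries are all below WT for Epyc (at most 0.275%) and all above WT for Bgn, Aspn and Ogn.

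As shares of the summed CPM per kb of all 10 members, on the exon union scale, Dcn made up 31.7% ± 3.35 in WT and 25.3% ± 1.98 in MGL KO. Lum made up 14.1% ± 1.41 in WT and 9.58% ± 0.76 in MGL KO, while Aspn made up 22.4% ± 4.05 and 30.9% ± 3.23, respectively (SD, n = 4). The ranges of Dcn, Lum and Aspn did not overlap, which is 3 of the 9 members apart from Epyc, beside 2.19% of all genes set against the same sum (0.807% higher and 1.38% lower). For Dcn the margin was narrow, with at most 27.4% in MGL KO and at least 27.6% in WT. With canonical lengths 3 of the 9 did not overlap as well, with Bgn in the place of Dcn. Shares are tied to each other, so that a lower share of one gene raises the others. The sum itself overlapped, at 125 to 162 CPM per kb in WT and 111 to 176 in MGL KO.

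**Figure D5:**
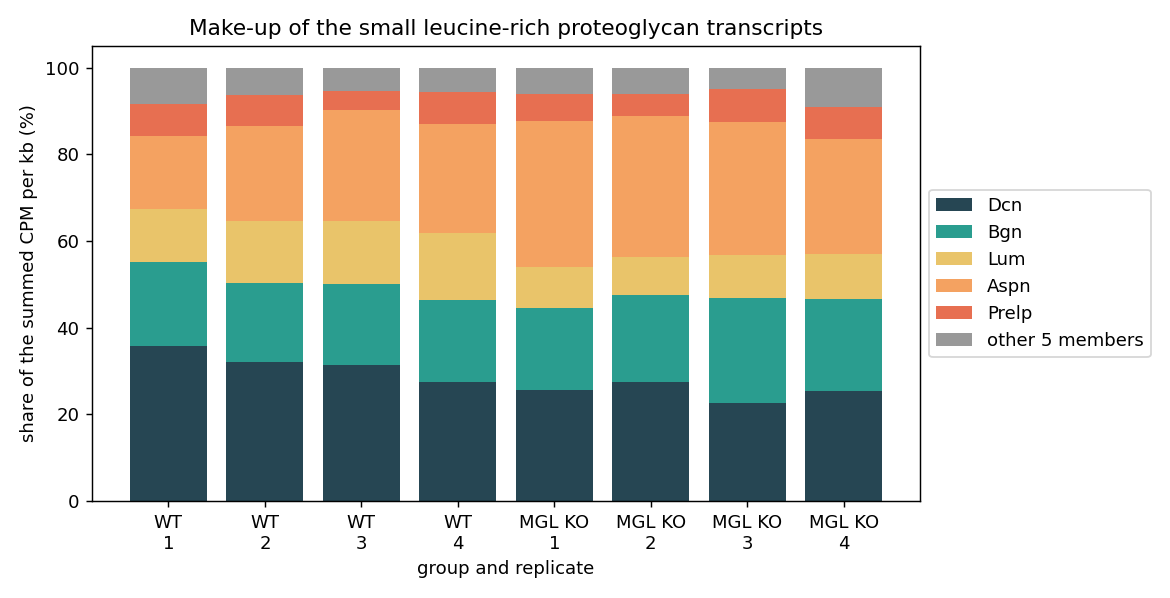
Share of the summed CPM per kb of annotated exons (y axis, %) taken by the 5 most abundant members and by the other 5 together in each of the 8 libraries (x axis). Lum takes 12.1% to 15.4% in WT and 8.59% to 10.3% in MGL KO, while Aspn takes 16.8% to 25.6% in WT and 26.5% to 33.8% in MGL KO.

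Levels of the members were set beside fibroblast markers, as fibroblasts are the main source of most of them. All 10 listed markers (among them Pdgfra, Dpt and Cd34) were measured, and 9 of them had estimates below 0, with a median log2 fold change of -0.27 and 0 past the adjusted threshold (1, Cd34, at an unadjusted p under 0.05). The median was -0.06 without MGL KO replicate 2, with 7 estimates below 0, and -0.45 without MGL KO replicate 3, with all 10 below 0. Their sum lay between 1516 and 2954 CPM in MGL KO and between 2062 and 2874 CPM in WT, and MGL KO replicate 2 was the lowest library. In that library the summed skeletal muscle markers were highest, at 96589.8 CPM against 41184 to 83389 CPM in the others. Gsn, another listed marker, gave most of the fibroblast marker sum, at 1037 to 1969 CPM in MGL KO and 1357 to 1930.5 CPM in WT. Ratios to this sum are thus largely ratios to Gsn. Relative to the fibroblast marker sum, Dcn lay between 17.6% and 27.6% in MGL KO. In WT it lay between 20.3% and 27.1%, so that its groups overlapped. Lum stayed lower and Bgn was higher without overlap, 2 of the 8 members tested apart from Epyc, beside 2.08% of all genes (0.653% lower and 1.43% higher). For Lum the ranges of 3.81% to 4.26% in MGL KO and 4.26% to 6.15% in WT were separated only in the third decimal. The part of a difference in fibroblast content in the Dcn and Lum values was not tested beyond these ratios. Lower estimates were not limited to fibroblast markers. All 6 listed endothelium markers had estimates below 0, with a median log2 fold change of -0.24, beside 47% of all genes below 0. Of these 6, 0 passed the adjusted threshold and 2 had an unadjusted p under 0.05, beside 8.65% of all genes tested. Without MGL KO replicate 2, Pecam1 and Cdh5 of that list were at 0.02 and 0.008.

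Several listed markers of cartilage, the tissue best known for Epyc, were close to 0. Col2a1 was at most 1.24 CPM in MGL KO and 0.394 CPM in WT, Acan at most 0.899 and 0.0652 CPM, and Col9a1 and Snorc had 0 counts in every WT library. The 14 listed markers summed to between 16.2 and 34.0 CPM in MGL KO and between 17.8 and 20.6 CPM in WT, in WT mostly from Sox9 and Col11a2, and 7 of them passed the count filter. In the WT libraries Epyc was at 4.30 CPM or more and Col2a1 at most 0.394 CPM. Other listed markers were near the level of Epyc there, with Col11a2 at 5.41 to 7.56 CPM and Sox9 at 4.04 to 6.25 CPM. The cartilage sum, Col2a1 and Acan were all at their highest in MGL KO replicate 4. The 6 listed tendon markers summed to between 144 and 272 CPM in MGL KO and between 167 and 236 CPM in WT, with Tnmd at most 0.326 CPM in any library and Scx between 26.9 and 87.98 CPM in MGL KO and between 38.01 and 43.7 CPM in WT. Of the 5 tendon markers tested, 0 passed the adjusted threshold, 3 had estimates above 0, and the median log2 fold change was 0.07. An unadjusted p under 0.05 was reached by 2, Fibin and Chodl, beside 8.65% of all genes tested. Their log2 fold changes were -0.51 and -0.57, and that of Chodl was -0.36 without WT replicate 4. The part of cartilage or tendon cells in the Epyc values was not tested.

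Across the 8 libraries, deviations from the group means of Dcn, Bgn, Lum, Aspn and Prelp moved together, with Pearson's r between 0.32 and 0.87 over the 10 pairs (median 0.70, log2 CPM). Those of Epyc correlated with these genes at 0.25 to 0.53 (median 0.30) and those of Ogn at -0.08 to 0.43 (median 0.11). Libraries share depth and tissue make-up across genes, and the counting error of Epyc is large, so these values are descriptions. The genes whose log2 CPM was most like that of Epyc over the 8 libraries were Amigo3 (r = 0.98), encoding a leucine-rich adhesion protein, Cirbp (0.98), encoding a cold-inducible RNA-binding protein, Dhtkd1 (0.98), Zfp101 (0.97) and Zzef1 (0.96). Their deviations from group means correlated with those of Epyc at 0.72, 0.65, 0.87, 0.76 and 0.87, respectively. As these genes were picked for likeness to Epyc over both groups, their group difference follows from the choice. For Dcn they were Ptgir (0.97), the prostacyclin receptor gene, Zscan25 (0.95), Ltc4s (0.94), Meox2 (0.94) and Cd27 (0.94), with within-group values of 0.86 to 0.93.

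The remaining members of the wider family were examined as a list of 8 genes, of which 7 were tested and 0 passed the adjusted threshold (1, Chad, at an unadjusted p under 0.05, beside 8.65% of all genes, with an estimate that turned without MGL KO replicate 4). Estimates were below 0 for 6 of the 7, with a median of -0.15, which was -0.51 without MGL KO replicate 4 and 0.003 without MGL KO replicate 2. Tsku, encoding tsukushi, a secreted inhibitor of several growth factors, was at 30.3 ± 12.04 CPM in MGL KO and 48.1 ± 14.5 CPM in WT, with a log2 fold change of -0.66 (SE 0.32). Ecm2 and Podn, which encodes podocan, were at 34.8 ± 10.6 and 15.6 ± 8.29 CPM in MGL KO and at 38.8 ± 7.48 and 17.3 ± 8.83 CPM in WT. Chadl and Podnl1 lay at 3.05 ± 0.97 and 0.64 ± 0.48 CPM in MGL KO and at 3.17 ± 0.56 and 0.86 ± 0.55 CPM in WT, and Nyx, at 0.80 CPM or less, was not tested.

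Chad, the chondroadherin gene, which encodes a cartilage matrix protein that binds collagen and integrins, was at 0.80, 0.09, 1.48 and 72.6 CPM in MGL KO replicates 1 to 4 and between 1.12 and 1.70 CPM in WT. Its level in MGL KO replicate 4 rested on 1292 counts, the library in which Foxj1 reached 228 CPM. The summed cartilage markers were also highest there, at 34.0 CPM against 16.2 to 20.7 CPM in the other 7 libraries, with Cytl1 alone at 11.4 CPM against at most 2.06 CPM. Without Cytl1 the sum was 22.6 CPM there and at most 19.9 CPM in the others. None of the other MGL KO libraries was above the highest WT library, beside a log2 fold change of 3.79 over all libraries (SE 1.59, edgeR quasi-likelihood adjusted p = 0.566) and of -0.72 without MGL KO replicate 4. The source of these transcripts was not tested.

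Genes that build, process or bind these proteins were counted from lists. Of 25 tested genes for chondroitin and dermatan sulfate chain synthesis, 0 passed the adjusted threshold and 1 had an unadjusted p under 0.05 (8.65% of all genes), with 13 estimates above 0 and a median of 0.03. The 3 with the smallest p, named for that reason, were Chpf2, a chondroitin polymerizing factor gene (log2 fold change -0.38, edgeR quasi-likelihood adjusted p = 0.557), Ust (-0.44) and Xylt1 (0.50), whose product starts the chain on the core protein. For keratan sulfate, 0 of 6 tested genes passed, 0 at the unadjusted limit, and the median was 0.02. B4galt4, Chst2 and Chst4 had the smallest p there, with log2 fold changes of 1.26, 0.48 and -0.72. The value of B4galt4 came from MGL KO replicate 4, at 39.8 CPM against at most 6.49 CPM in the other MGL KO and 6.75 CPM in the WT libraries, and was -0.01 without it. The log2 fold change of Chst2 was 0.32 without that library, and that of Chst4, which had at most 34 counts in a library, was -0.20 without WT replicate 1 and -1.12 without WT replicate 3.

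Among 17 tested genes for proteases that trim or degrade matrix proteins and for the enhancers of procollagen trimming Pcolce and Pcolce2, 0 passed the adjusted threshold and 1 had an unadjusted p under 0.05. The latter stands beside 8.65% of all genes tested. That gene was Tll2, of the tolloid family that trims procollagens and some of these proteoglycans, at 2.85 ± 0.34 CPM in MGL KO and 5.18 ± 0.94 CPM in WT (SD, n = 4). Its groups did not overlap, as in 6.02% of all genes, and its log2 fold change was -0.86 (SE 0.22, edgeR quasi-likelihood adjusted p = 0.433). Adamts4 and Pcolce followed by p, at log2 fold changes of 1.01 and -0.32, the latter -0.49 without MGL KO replicate 3.

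All 17 genes for fibrillar and associated collagens and cross-linking enzymes were tested, and 0 passed either limit. Estimates were below 0 for 11 of them, with a median of -0.22, which was -0.009 without MGL KO replicate 2 and -0.53 without MGL KO replicate 3. Tnxb, the tenascin X gene, had the smallest p at 272 ± 121 CPM in MGL KO and 396 ± 72.1 CPM in WT, followed by Loxl2 and Loxl4 with log2 fold changes of 0.37 and 0.28. That of Loxl2 was 0.09 without MGL KO replicate 3, which was at 69.1 CPM against at most 41.6 CPM in the other 7 libraries, and that of Loxl4 was 0.20 to 0.44 with 1 library left out, the highest without WT replicate 1. The 14 genes for growth factors and receptors that bind these proteoglycans likewise held 0 past either limit and had a median of -0.04. Tlr4, Tgfb3 and Ccn4 had the smallest p, with log2 fold changes of 0.31, 0.30 and 0.97. That of Tgfb3 was 0.11 without MGL KO replicate 2, and that of Ccn4 was 0.64 without MGL KO replicate 4 and 1.49 without WT replicate 4.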

How the data were processed

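RNA from frozen mouse esophagus was sequenced after poly(A) selection. According to the study's methods, the authors checked reads with FastQC 0.11.9, trimmed adapters with Cutadapt and aligned them to GRCm39 with STAR 2.7.10b; the annotation, counting tool and strand setting are not given in the sources used here. The deposited values are whole-number counts per gene symbol and library, not normalized by the authors. Each of the 8 columns was matched to its library by the labels.

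Counts were analysed with edgeR 4.0.16 in R 4.3.3. The filter was filterByExpr with a minimum count of 10, TMM factors scaled the libraries, and groups of 4 were compared with the quasi-likelihood test, with Benjamini-Hochberg adjustment over 14864 genes and a threshold of 0.05. Standard errors were taken from the test statistic. The study names edgeR, whose exact test was run as an alternative. Other alternatives were DESeq2 1.42.0, limma-voom (limma 3.58.1) with quality weights, other factors and filters, a robust fit, a replicate block, a Y-linked covariate and leaving out each library. Log2 CPM for correlations used a prior count of 1. The quasi-likelihood test was tested on simulated data.

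The members and lists were chosen with earlier results of these data known. Named genes were the members, the other family genes, list genes past the threshold or otherwise the 3 with the smallest p, the 5 genes most like Epyc or Dcn, and the markers needed. Levels between genes were set per kb of the union of annotated exons, and the canonical transcript length was added as an alternative after the data were seen. Gene positions, lengths and promoters came from GRCm39 with GENCODE annotation, the build named in the submitters' processing notes. No pair of libraries of a group agreed within sampling noise. The study describes its replicates as esophagi, and the labels do not tie libraries to animals, so p-values measure the spread between these libraries. The count table was the only file used. A promoter sequence of 1 member is not reported here.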

Additional observations from a re-analysis of the deposited data

Results flagged for a closer look

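Chad was far from its group in MGL KO replicate 4, at 72.6 normalized CPM, where the nearest of the other 3 MGL KO libraries was at 1.48 CPM. Across the members and the other family genes, 36 groups of 4 libraries were compared in this way and 1 had such a library, where chance gives about 1.8. The source of the Chad transcripts was not tested.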

How the results depend on the processing

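Between MGL KO and WT, 7 genes passed the threshold. The number was 2 without a filter and in the robust fit, 3 with the Y-linked covariate, 25 with limma-voom, 137 with DESeq2, 65 by the exact test after the filter and 42 by the exact test before it. Leaving out each library gave 2 to 5. The cause was not tested, although without a filter more genes were tested. The log2 fold change of Epyc stayed between -2.43 and -2.07 in all of them that kept the gene. The replicate block called 2 genes. Deviations of same-numbered libraries correlated at r of -0.14, -0.28, -0.14 and 0.08 across 14864 genes. Differences in tissue make-up enter these values, so they cannot decide whether such libraries were paired. The labels give no link beyond the number.

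No other member and no gene of the related lists passed in any alternative. Dcn, Lum, Ogn and Aspn kept their direction in all settings, with ranges of -0.43 to -0.23, -0.74 to -0.45, 0.30 to 0.53 and 0.32 to 0.60. Direction turned for Prelp with limma-voom (0.084). With 1 library left out, the log2 fold change ranged from -0.070 to 0.25 for Omd, -0.075 to 0.25 for Bgn, -1.31 to 0.19 for Fmod and -0.25 to 0.15 for Prelp. The filter of 10 counts in every library removed Epyc and Fmod. With canonical transcript lengths, chosen after the data were seen, levels moved to 84.2 CPM per kb for Dcn, 78.2 for Bgn, 43.2 for Lum and 15.05 for Prelp, by the shorter lengths. Depth limits Kera, Omd and, in MGL KO, Epyc.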
